A study of Mus musculus with 4 samples.

Results

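The genes of the mitochondrial protein import machinery were compared between the livers of WT and DDI2-KO mice by mRNA sequencing. Members were the protein-coding genes whose symbol starts with Timm or Tomm and a digit, together with Dnlz, Grpel1, Grpel2, Pmpca, Pmpcb, Samm50, Mtx1, Mtx2, Chchd4, Gfer, Lonp1, Clpp and Clpx. This rule gave 38 of the 48709 genes in the count tables. It works on symbols and used no measured value, but it was chosen with earlier results of these data known. Tomm6os, an antisense transcript that is not protein-coding, was left out. The data were 4 libraries, 2 from WT and 2 from DDI2-KO livers, all from untreated adult C57BL/6 mice. Mice of both groups carried Ddi2 flox/flox alleles derived from a single targeted embryonic stem cell allele. The WT animals were littermates without Cre recombinase, and the DDI2-KO animals expressed Cre under the albumin promoter. That promoter is active in hepatocytes. Whether other cells of the liver kept an intact gene was not measured here. The study used mice of both sexes, and the sex of the animal behind each library was not given in the sources used here. DDI2 is an aspartic protease that cleaves and activates the transcription factor NFE2L1, also called NRF1.

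Most mitochondrial proteins are encoded in the nucleus, made in the cytosol and imported. They pass the outer membrane through the TOM complex, and from there precursors with a cleavable presequence go through the TIM23 translocase, pulled by a motor built around mitochondrial HSP70, while carrier proteins are handed by small Tim chaperones to the TIM22 translocase. The SAM complex inserts barrel proteins into the outer membrane, the disulfide relay of CHCHD4 and GFER folds proteins in the intermembrane space, the peptidase of PMPCA and PMPCB removes presequences, and the proteases LONP1 and CLPXP degrade proteins in the matrix. In hepatocytes, which are rich in mitochondria, this system supplies the enzymes of the urea cycle, fatty acid oxidation and respiration.

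A few DNA sequences bear on the results and are given here. The first are the 250 bases before the annotated start of Timm9 and Gfer, the members that passed the test, and of Chchd4 and Mtx2, whose windows hold searched letters, all from RefSeq on GRCm38.p6 and written 5′ to 3′ on the gene's strand. In Chchd4, capitals mark a match to the palindrome of nuclear respiratory factor 1, a protein unrelated to NFE2L1, with any base at its position 5, and in Mtx2 CCGGAAGTG, the letters of GABP, and GCGTTGTCA, the reverse strand of the antioxidant response element TGACNNNGC. Timm9 and Gfer held none of the letters searched.
Timm9 (chr12:71136676-71136925, minus strand): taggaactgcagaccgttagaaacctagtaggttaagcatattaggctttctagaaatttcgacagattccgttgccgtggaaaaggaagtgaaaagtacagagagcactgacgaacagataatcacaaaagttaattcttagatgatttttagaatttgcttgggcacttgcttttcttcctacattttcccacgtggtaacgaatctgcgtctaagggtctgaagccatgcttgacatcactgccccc
Gfer (chr17:24696157-24696406, minus strand): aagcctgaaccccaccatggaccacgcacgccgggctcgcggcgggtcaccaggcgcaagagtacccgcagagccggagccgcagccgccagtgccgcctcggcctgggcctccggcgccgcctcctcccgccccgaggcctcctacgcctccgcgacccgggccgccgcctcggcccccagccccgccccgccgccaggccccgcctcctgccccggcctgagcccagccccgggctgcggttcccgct
Chchd4 (chr6:91473424-91473673, minus strand): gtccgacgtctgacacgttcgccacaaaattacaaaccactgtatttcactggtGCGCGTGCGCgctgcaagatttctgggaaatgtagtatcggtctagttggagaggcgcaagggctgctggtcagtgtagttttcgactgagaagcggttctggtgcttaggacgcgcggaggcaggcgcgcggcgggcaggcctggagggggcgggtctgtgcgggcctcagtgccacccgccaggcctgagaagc
Mtx2 (chr2:74825562-74825811, plus strand): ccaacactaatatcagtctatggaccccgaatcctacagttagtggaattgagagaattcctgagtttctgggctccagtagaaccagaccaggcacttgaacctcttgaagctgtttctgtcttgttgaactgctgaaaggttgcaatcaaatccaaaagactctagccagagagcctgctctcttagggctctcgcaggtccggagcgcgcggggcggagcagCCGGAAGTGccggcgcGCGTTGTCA

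The second set bears on the count of Timm23, the channel of the presequence translocase. Its 627 coding bases were identical to those of Gm10273, a gene annotated elsewhere as protein-coding, with 0 bases that differ. Coding bases 1 to 120 of both, from the GENCODE transcripts of GRCm38, read as follows, and no letter is in capitals because none differs.
Timm23: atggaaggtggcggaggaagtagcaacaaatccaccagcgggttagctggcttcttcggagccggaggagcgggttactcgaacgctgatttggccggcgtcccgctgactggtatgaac
Gm10273: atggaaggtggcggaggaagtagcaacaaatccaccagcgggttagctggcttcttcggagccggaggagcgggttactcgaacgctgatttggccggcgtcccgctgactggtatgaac

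The count tables assigned 34109018 and 31532247 reads to genes in WT, against 25582344 and 22501208 in DDI2-KO, so that 3 reads, taken as the detection floor, stood for 0.0892 to 0.131 CPM, counts scaled to a common library total after TMM in edgeR. The error after ± is the standard error for a log2 fold change and the SD over libraries for a mean. The whole-gene count of Ddi2, the targeted gene, was 4749 and 3812 reads in WT, against 4068 and 3777 in DDI2-KO (log2 fold change 0.28 ± 0.17, adjusted p = 0.349 by edgeR's quasi-likelihood test). The whole-gene count thus gave no check of the deletion, since reads within the floxed part were not counted separately, and groups are named as labelled. Libraries of a group differed by more than sampling noise, with a chi-square per degree of freedom of 64.7 in WT and 34.7 in DDI2-KO. Transcripts of the mitochondrial genome took 10.5% and 9.91% of gene reads in WT, against 5.27% and 6.34% in DDI2-KO. None of the 6 hepatocyte markers examined passed the test, and neither did any of the Kupffer cell, stellate cell, bile duct or leukocyte markers. Hepatocyte markers still summed lower in both DDI2-KO libraries, at 154040 and 179091 CPM in WT and 144805 and 148864 in DDI2-KO. So did stellate cell markers (422 and 430 against 377 and 417) and leukocyte markers (25.1 and 23.6 against 17.5 and 19.2). Kupffer cell markers (558 and 483 against 696 and 595) and bile duct markers (56.4 and 52.8 against 70.4 and 68.7) summed higher. Of the 5 sinusoidal endothelial markers only Stab2 passed, and it fell. Together these markers overlapped between groups, at 352 and 316 CPM in WT and 320 and 301 in DDI2-KO. The globin gene Hba-a1 fell, and the 4 globin genes summed to 86.8 and 168 CPM in WT and 51.2 and 45.4 in DDI2-KO. Adipocyte and muscle markers had at most 3 reads in every library. The part of these differences in the results below was not tested. In bulk liver, fewer cells of a type and less RNA per cell cannot be told apart.

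Of the 38 members, 35 had enough reads to be tested. The disulfide relay oxidase Gfer and the small Tim chaperone Timm9 rose in DDI2-KO, and no member fell (quasi-likelihood test of edgeR, adjusted p under 0.05 by Benjamini-Hochberg over 13699 genes). Over all genes tested, 1.33% were called higher and 1.20% lower. At an unadjusted p under 0.05, 12 members were higher and 1, Mtx1, was lower, where 12.0% and 11.5% of all genes were. DESeq2 called 8 members higher (Chchd4, Clpx, Gfer, Grpel1, Samm50, Timm8a1, Timm9 and Tomm40l), where 4.17% of all its genes were. Under limma-voom and limma-trend 0 members were called higher, where 0.526% and 0.540% of all genes were. None of these 3 tools called a member lower, where 3.21%, 0.467% and 0.474% of all genes were. Both DDI2-KO libraries lay above both WT libraries for 17 members, where 28.0% of all genes did, and below them for 2, Mtx1 and Timm21, where 27.7% did. The log2 fold change was above 0 for 25 members and below 0 for 10, and above 0 for 48.7% of all genes. Its median was 0.26 over the members and -0.015 over all genes. Summed over all 38 members, the WT libraries held 1213 and 1241 CPM and the DDI2-KO libraries 1568 and 1525, a ratio of means of 1.26. Members are measured in the same 4 libraries and are not independent of each other, so these counts describe the list and were not tested.

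**Figure D1:**
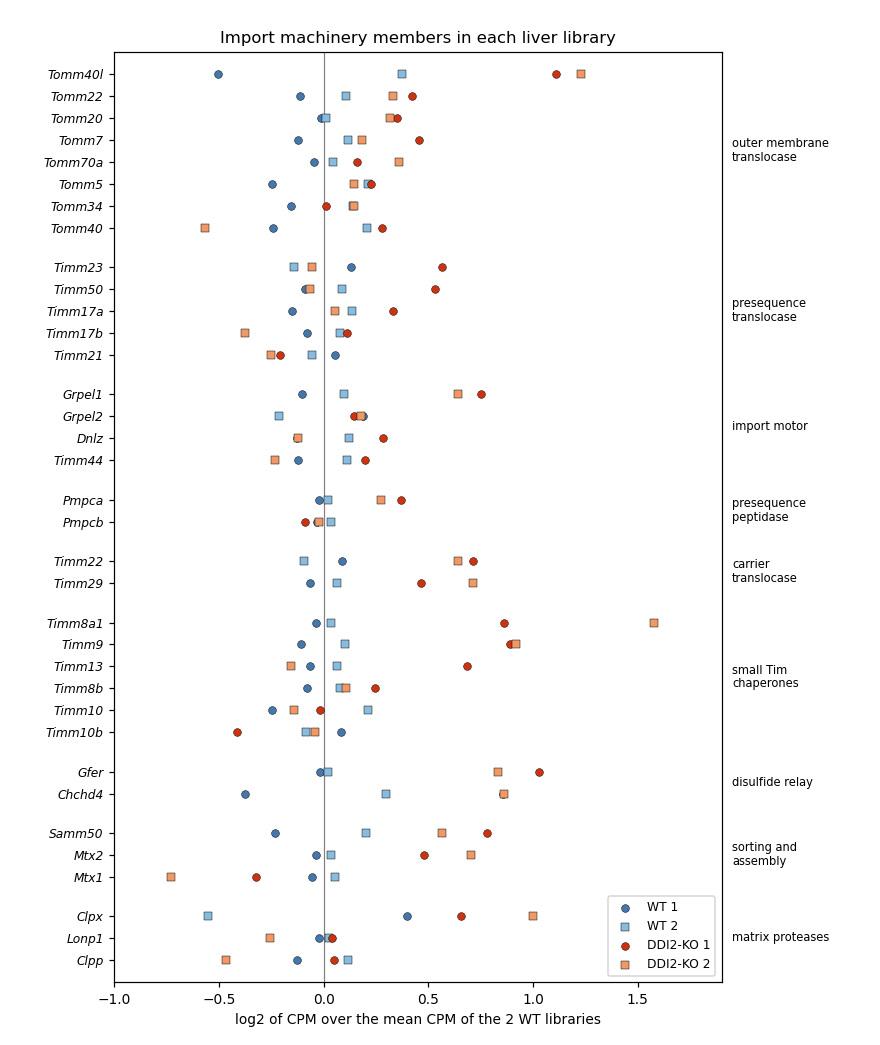
Each row is a tested member, grouped by role, and each point is a library, placed at the log2 of its CPM over the mean CPM of the 2 WT libraries (circles and squares, replicates 1 and 2; blues, WT; reds, DDI2-KO). The points of the DDI2-KO libraries lie to the right of those of the WT libraries in 17 of 35 rows and to the left in 2. Over all genes tested, 28.0% lay above WT in both DDI2-KO libraries and 27.7% below.

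The members that rose belong to different branches. Gfer (ENSMUSG00000040888, chr17:24693187-24696156, minus strand) encodes the sulfhydryl oxidase that takes electrons from CHCHD4. It had 473 and 446 reads in WT, against 752 and 584 in DDI2-KO, or 14.1 and 14.4 CPM against 29.1 and 25.4. Both DDI2-KO values were well above both WT values, and the WT values differed little. The WT mean was 14.3 ± 0.259 CPM (SD, n = 2) and the DDI2-KO mean 27.2 ± 2.57 CPM, a log2 fold change of 0.93 ± 0.17 (adjusted p = 0.0404 by edgeR's quasi-likelihood test). The call was lost without WT replicate 1 (adjusted p = 0.173 by the same edgeR test) and without WT replicate 2 (adjusted p = 0.130), while the log2 fold change stayed between 0.84 and 1.04 whichever library was left out. The adjusted p was 0.0524 under limma-voom, 0.0553 under limma-trend and 0.0520 in edgeR without robust estimation, just above the threshold. Of the 50-base stretches of its longest transcript, 27.4% also occur in Dst, a cytoskeletal linker gene with 1934 and 1804 reads in WT, against 1225 and 905 in DDI2-KO. The count of Dst was lower in both DDI2-KO libraries, with a log2 fold change of -0.42 (adjusted p = 0.173, edgeR). Reads that fit several places were counted on no gene. How many reads Gfer lost in this way was not tested.

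Timm9 (ENSMUSG00000021079, chr12:71123173-71136684, minus strand) encodes a subunit of the hexameric chaperone that guards hydrophobic carrier proteins across the intermembrane space. It had 271 and 288 reads in WT, against 417 and 377 in DDI2-KO, or 8.06 and 9.32 CPM against 16.1 and 16.4. The groups did not overlap, and the DDI2-KO libraries were closer to each other than the WT libraries were. The WT mean was 8.69 ± 0.892 CPM (SD, n = 2) and the DDI2-KO mean 16.3 ± 0.208 CPM, a log2 fold change of 0.90 ± 0.18 (adjusted p = 0.0472, edgeR). The adjusted p was 0.0604 under limma-voom, 0.0623 under limma-trend and 0.0582 in edgeR without robust estimation. In edgeR it was 0.0552 with upper-quartile factors and 0.0521 with a mean of at least 1 CPM. The call was lost under each of these settings. No 50-base stretch of its longest transcript occurs in another gene. Without WT replicate 1, WT replicate 2 or DDI2-KO replicate 1 the adjusted p of the edgeR test was 0.250, 0.126 and 0.0565, and the log2 fold change lay between 0.80 and 1.01 over the 4 libraries left out in turn.

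The other 5 tested small Tims did not pass the test. Timm10, the partner of Timm9 in the same hexamer, had 9.28 and 12.8 CPM in WT and 10.9 and 10.01 in DDI2-KO, so the libraries overlapped and the log2 fold change was -0.077 ± 0.22. The difference between Timm9 and Timm10 was not tested. Timm10b, which docks the hexamer on the carrier translocase, was at 3.60 and 3.20 CPM in WT and 2.55 and 3.31 in DDI2-KO. Its reads are uncertain, because 19.9% of its stretches occur in Gm45799 or Arfip2, genes that overlap it.

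Timm8a1, whose human counterpart is mutated in a deafness and dystonia syndrome, forms another hexamer with Timm13. It had the largest fitted log2 fold change of the members, 1.26 ± 0.32 (adjusted p = 0.0713, edgeR), from 62 and 60 reads in WT, against 89 and 130 in DDI2-KO. The groups did not overlap, but 41.0% of its stretches occur in the processed pseudogene Gm9797, which had 12 and 10 reads in WT, against 1 and 6 in DDI2-KO. Without DDI2-KO replicate 1 the log2 fold change was 1.58 (adjusted p = 0.0419, edgeR) and without DDI2-KO replicate 2 it was 0.87 (adjusted p = 0.148), while leaving out WT replicate 1 or 2 gave an adjusted p of 0.252 and 0.178. Timm13 was split within DDI2-KO, at 21.3 and 11.9 CPM against 12.7 and 13.8 in WT (log2 fold change 0.33). Timm8b, the highest small Tim per length, was at 22.4 and 25.02 CPM in WT and 28.1 and 25.5 in DDI2-KO (log2 fold change 0.18 ± 0.16). Timm8a2 had 0 reads in every library, below the floor of 3.

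Chchd4, the oxidoreductase of the disulfide relay that works with Gfer, had 5.95 and 9.48 CPM in WT and 13.9 and 14.0 in DDI2-KO. The DDI2-KO libraries were nearly equal and above both WT libraries, which differed from each other. Its log2 fold change was 0.86 ± 0.25 (adjusted p = 0.0930, edgeR). Both members of the relay were thus higher in both DDI2-KO libraries, where 28.0% of all genes tested were, and only Gfer passed the test.

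**Figure D2:**
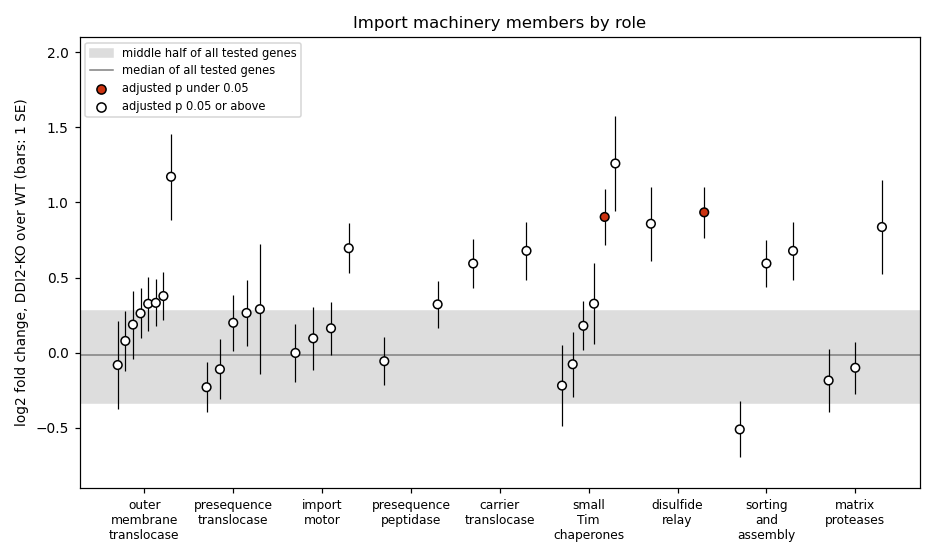
The vertical axis is the log2 fold change of DDI2-KO over WT with bars of 1 standard error, the horizontal axis the role, and within a role the tested members are ordered by value. Filled points are Timm9 and Gfer, with an adjusted p under 0.05, and the grey band is the range from the lower to the upper quartile of all 13699 genes tested, with their median of -0.015 as a line.

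The outer membrane translocase had 10 members, of which 8 were tested and 0 passed. Of these, 7 had a log2 fold change above 0, with a median of 0.29. The highest per length was Tomm22, the central receptor that gathers precursors, at 31.7 and 36.9 CPM in WT and 45.9 and 43.1 in DDI2-KO (log2 fold change 0.38 ± 0.16, adjusted p = 0.207, edgeR). The receptor Tomm20 gave tight libraries, at 20.6 and 20.9 CPM in WT and 26.4 and 25.8 in DDI2-KO, and a log2 fold change of 0.33 ± 0.16 (adjusted p = 0.244, edgeR). Tomm70a, the receptor of carrier precursors, was at 107 and 114 CPM in WT and 123 and 141 in DDI2-KO (log2 fold change 0.26). For all 3 receptors both DDI2-KO libraries were above both WT libraries, where this held for 28.0% of all genes tested. The small subunit Tomm7 behaved likewise, with 20.5 and 24.2 CPM against 30.7 and 25.4. Its fellow small subunit Tomm5 and the cytosolic factor Tomm34 overlapped between groups, with log2 fold changes of 0.19 and 0.078.

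The channel itself, Tomm40, was spread widely within DDI2-KO, at 19.6 and 10.9 CPM against 13.7 and 18.7 in WT, and its log2 fold change was -0.082 ± 0.29. Its paralog Tomm40l had 176 and 298 reads in WT, against 416 and 400 in DDI2-KO, or 5.23 and 9.65 CPM against 16.1 and 17.4. Both DDI2-KO libraries were above both WT libraries, and WT replicate 1 stood low. The log2 fold change was 1.17 ± 0.28 (adjusted p = 0.0702, edgeR). Without WT replicate 2 it was 1.68 (adjusted p = 0.0198, edgeR) and without WT replicate 1 it was 0.80 (adjusted p = 0.255), while leaving out DDI2-KO replicate 1 or 2 gave an adjusted p of 0.185 and 0.205. The exons of Tomm40l (chr1:171216011-171222514, minus strand) overlap over 64.3% of their length those of Nr1i3 on the opposite strand, the nuclear receptor CAR, which had 8019 and 5775 reads in WT, against 3461 and 3673 in DDI2-KO (log2 fold change -0.54, adjusted p = 0.152, edgeR). The kit marks strand, but whether the counting used it was not given in the sources used here. Without it, reads in the overlap would be ambiguous and counted on neither gene. The part of this in the count of Tomm40l was not tested. Tomm20l had 1, 0, 1 and 0 reads and Tomm6 0, 0, 0 and 1, at or under the floor. Tomm6 shares 77.2% of its stretches with Gm21981, a read-through gene on the same strand that itself had 2, 0, 0 and 1 reads.

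Of the 5 members of the presequence translocase, 0 passed the test and the median log2 fold change was 0.20. Timm17b, the highest of them per length, had 24.4 and 27.2 CPM in WT and 27.9 and 19.8 in DDI2-KO (log2 fold change -0.11 ± 0.20). Timm17a, its paralog in the channel, overlapped too, at 20.1 and 24.5 against 28.0 and 23.1 (log2 fold change 0.20). Timm50, the receptor of presequences, was at 15.4 and 17.4 CPM in WT and 23.6 and 15.7 in DDI2-KO (log2 fold change 0.26). For these 3 genes DDI2-KO replicate 1 was above both WT libraries and DDI2-KO replicate 2 was not.

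Timm21, which links the translocase to the respiratory chain, was lower in both DDI2-KO libraries, at 17.9 and 16.6 CPM in WT and 14.9 and 14.5 in DDI2-KO. The difference was small, with a log2 fold change of -0.23 ± 0.17 (adjusted p = 0.449, edgeR). Timm23 had 25 and 19 reads in WT, against 26 and 15 in DDI2-KO. Of its stretches, 90.9% occur in Gm10273, the gene with the identical coding sequence, which had 0 reads in every library. Reads that fit several places were not counted on any gene. The summary line for alignments that were not unique made up 37.9% and 32.6% of all entries in WT and 31.7% and 30.6% in DDI2-KO. These entries are alignments, so the share of reads may be smaller. The level of Timm23 could therefore not be read from these tables, nor could a change in it.

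In the import motor, Grpel1, the nucleotide exchange factor that lets mitochondrial HSP70 release its substrate, had 2949 and 3109 reads in WT, against 4099 and 3370 in DDI2-KO. This was 87.7 and 100.6 CPM in WT against 158 and 147 in DDI2-KO, without overlap. The log2 fold change was 0.70 ± 0.17 (adjusted p = 0.0668, edgeR). Opposite 11.6% of the exon length of Grpel1 lies Tada2b, with 509 and 492 reads in WT, against 553 and 556 in DDI2-KO. Tada2b was higher in both DDI2-KO libraries (log2 fold change 0.55, adjusted p = 0.106, edgeR), and its part in the count of Grpel1 was not tested. Grpel2, the paralog of Grpel1, did not separate the groups, at 50.6 and 38.4 CPM in WT and 49.3 and 50.4 in DDI2-KO (log2 fold change 0.16). Timm44, which tethers the motor to the channel, had a log2 fold change of -0.0015 ± 0.19, with 35.2 and 41.5 CPM in WT around 44.0 and 32.6 in DDI2-KO. Dnlz, a partner that keeps HSP70 soluble, was at 11.6 and 13.8 against 15.4 and 11.6 (log2 fold change 0.096). Grpel1 was thus the only one of the 4 motor members with an unadjusted p under 0.05. Pmpca, the recognition subunit of the presequence peptidase, had 76.6 and 78.9 CPM in WT and 100.5 and 93.9 in DDI2-KO (log2 fold change 0.32 ± 0.16, adjusted p = 0.256, edgeR), with 20.4% of its exon length opposite Inpp5e. The catalytic subunit Pmpcb, higher per length, was at 129 and 135 against 124 and 130 (log2 fold change -0.056).

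Both members of the carrier translocase were above WT in both DDI2-KO libraries, where 28.0% of all genes tested were. Neither passed the test. The channel Timm22 had 8.27 and 7.28 CPM in WT and 12.7 and 12.1 in DDI2-KO (log2 fold change 0.68 ± 0.19, adjusted p = 0.0902, edgeR). Its subunit Timm29, the higher per length, had 35.8 and 39.1 CPM in WT and 51.6 and 61.3 in DDI2-KO (log2 fold change 0.59 ± 0.16, adjusted p = 0.0868, edgeR).

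None of the 3 members of the sorting and assembly machinery passed the test. Samm50, the barrel that inserts other barrels, had 51.6 and 69.9 CPM in WT and 104 and 89.9 in DDI2-KO (log2 fold change 0.68 ± 0.19, adjusted p = 0.0931, edgeR). Mtx2, a metaxin on its cytosolic face and the highest of the 3 per length, had 41.2 and 43.2 CPM in WT and 58.8 and 68.7 in DDI2-KO (log2 fold change 0.59 ± 0.16, adjusted p = 0.0812, edgeR). In both, the DDI2-KO libraries were the higher ones. Mtx1, the other metaxin, had 963 and 953 reads in WT, against 616 and 412 in DDI2-KO, or 28.6 and 30.8 CPM against 23.8 and 17.9. Its log2 fold change of -0.51 ± 0.19 (adjusted p = 0.154, edgeR) was the lowest of the members, and both DDI2-KO libraries were below both WT libraries. Opposite its exons, over 30.1% of their length, lie Gm43737 and Thbs3. Gm43737 had 86 and 57 reads in WT, against 48 and 33 in DDI2-KO (log2 fold change -0.42, adjusted p = 0.493, edgeR). Thbs3 had 18 and 12 reads in WT, against 11 and 10 in DDI2-KO. The part of these genes in the count of Mtx1 was not tested.

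Among the matrix proteases, Clpx, the ATPase that unfolds substrates for CLPP, had 149 and 76.9 CPM in WT and 178 and 226 in DDI2-KO. WT replicate 2 stood far below the other 3 libraries, and both DDI2-KO libraries were above both WT libraries. The log2 fold change was 0.84 ± 0.31 (adjusted p = 0.175, edgeR). It was 1.39 without WT replicate 1 (adjusted p = 0.0448, edgeR), 0.44 without WT replicate 2 (adjusted p = 0.485), 1.00 without DDI2-KO replicate 1 (adjusted p = 0.343) and 0.66 without DDI2-KO replicate 2 (adjusted p = 0.515). The peptidase Clpp, at 23.5 and 27.9 CPM in WT and 26.6 and 18.6 in DDI2-KO, had a log2 fold change of -0.18 ± 0.21. Lonp1 was at 114 and 118 CPM in WT and 119 and 97.1 in DDI2-KO (log2 fold change -0.10 ± 0.17). Neither of these separated the groups.

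Levels were compared between genes as CPM per kilobase of exon, averaged over the 4 libraries. The highest were Timm8b at 48.8, Clpx at 45.1 and Grpel1 at 35.0, followed by Lonp1 at 25.6, Pmpcb at 25.1 and Tomm22 at 23.9. The order of these neighbours does not hold in single libraries, since Clpx ranged from 22.0 to 64.6 and Grpel1 from 24.9 to 44.9, whereas Timm8b stayed between 43.2 and 54.3. Both members that rose were lower, Gfer at 9.30 and Timm9 at 2.91. The lowest tested members were Timm8a1 at 2.27, Chchd4 at 2.09, Timm10b at 0.884 and Timm23 at 0.422. The value of Timm23 leaves out reads that also fit Gm10273, so its level and its place in this order cannot be read. The log2 fold changes of the tested members were not ordered by level (Spearman -0.022 with mean CPM over 35 genes, a description).

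**Figure D3:**
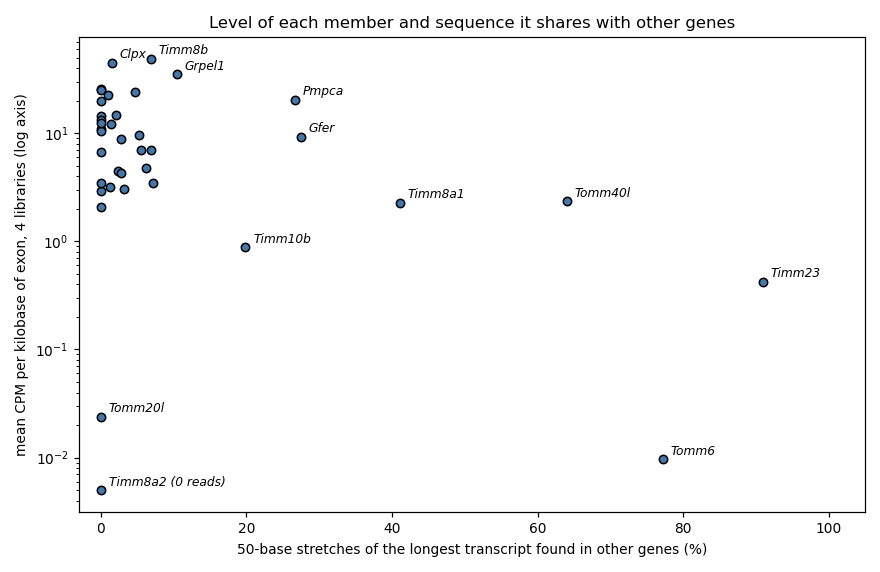
Each point is one of the 38 members, at the percentage of 50-base stretches of its longest transcript that other genes also hold (horizontal) and its mean CPM per kilobase over 4 libraries (vertical, log axis; Timm8a2, with 0 reads, is drawn at the lower edge). Timm23, at 90.9%, and Tomm6, at 77.2%, lie far below most members, and so does Tomm20l, which shares none.

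Several members come as paralogs or as partners, and their ratio within a library does not depend on library size. In every pair except Timm10b to Timm10 the gene with the higher log2 fold change is written first. The direction of those ratios follows from that order and is no separate result. The ratio of Tomm40l to Tomm40, per kilobase, was 0.336 and 0.454 in WT and 0.721 and 1.40 in DDI2-KO. Mtx2 to Mtx1 was 1.40 and 1.37 in WT and 2.41 and 3.74 in DDI2-KO. For Clpx to Clpp the values were 2.22 and 0.965 against 2.34 and 4.25. In these 3 pairs the DDI2-KO ratios were the higher, though for Clpx to Clpp the nearest WT and DDI2-KO values almost met. Mtx2 and Clpx have a GC content of 43.7% and 44.6%, against 61.7% and 57.8% for Mtx1 and Clpp. The part of base composition in these ratios was not tested. Grpel1 to Grpel2 was 3.32 and 5.02 in WT and 6.16 and 5.58 in DDI2-KO, and Timm17a to Timm17b 0.267 and 0.292 against 0.326 and 0.377. Timm8a1 to Timm8b was 0.0300 and 0.0283 against 0.0446 and 0.0807, and Pmpca to Pmpcb 0.715 and 0.703 against 0.975 and 0.870. Timm10b to Timm10 overlapped, at 0.0882 and 0.0570 in WT and 0.0533 and 0.0752 in DDI2-KO. With 2 libraries a group, an exact two-sided permutation test cannot go below p = 0.333, so no ratio could be shown to differ by such a test. No ratio was formed for Tomm20 and Tomm20l, which had at most 1 read.

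**Figure D4:**
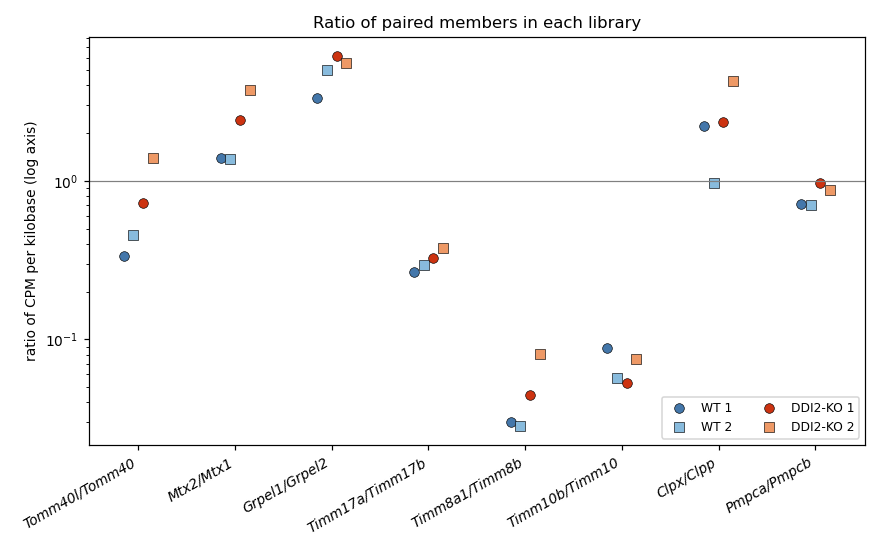
The vertical axis (log) is the ratio of CPM per kilobase of the first gene to the second in each of the 4 libraries, for 8 pairs of members. The DDI2-KO points lie above the WT points in 7 pairs and overlap them in Timm10b to Timm10. In those 7 pairs the gene with the higher log2 fold change is written first, which sets the direction.

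Within DDI2-KO the libraries differed along base composition. Over the 35 tested members the log2 ratio of DDI2-KO replicate 2 to replicate 1 had a Spearman correlation of -0.571 with the GC content of the longest transcript, and over 13675 genes it was -0.481. Between the WT libraries the values were 0.247 and 0.0683. Tomm40, Timm13, Timm23, Timm50 and Clpp had a ratio below -0.5 between the DDI2-KO replicates. The log2 fold change of the members itself had a correlation of -0.241 with GC content and 0.145 with length. All these values come from the same 4 libraries and are descriptions. With offsets for length and GC content, the median log2 fold change was 0.18 over the members and -0.069 over all genes, 22 members were above 0, and Gfer (0.77, adjusted p = 0.0289) and Timm9 (0.79, adjusted p = 0.0399) remained the only members called by edgeR, where 2.34% of all genes were called higher. With the offsets and a replicate block together, Gfer and Tomm40l (adjusted p = 0.0398 and 0.0436, edgeR) were called and Timm9 was not (adjusted p = 0.0525).

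**Figure D5:**
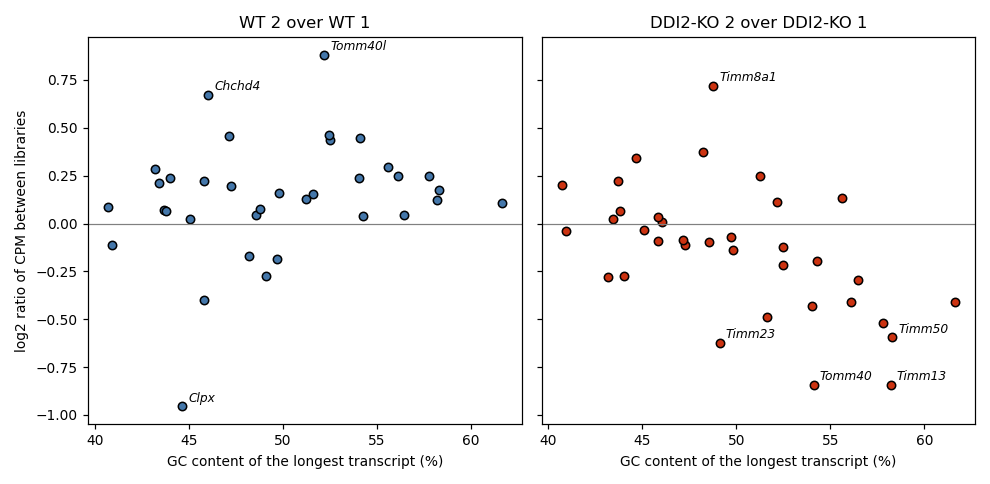
Each point is a tested member, at the GC content of its longest transcript in percent (horizontal) and the log2 ratio of CPM of replicate 2 to replicate 1 (vertical), for the WT libraries on the left and the DDI2-KO libraries on the right. The DDI2-KO points fall with GC content (Spearman -0.571), and the WT points do not (0.247).

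Some members lie back to back with another gene. For 8 of the 38, or 21.1%, a gene on the opposite strand starts within 1000 bases upstream, where 6.82% of 21695 protein-coding genes have such a neighbour. The starts of Gfer and Noxo1, an oxidase organizer, are 78 bases apart, and Noxo1 was near silent, with 36 and 21 reads in WT, against 20 and 25 in DDI2-KO (log2 fold change 0.078). Those of Timm9 and 2700049A03Rik are 164 bases apart, and that gene had 172 and 118 reads in WT, against 103 and 103 in DDI2-KO (log2 fold change -0.081). Neither neighbour of the members that rose was thus higher in both DDI2-KO libraries. Timm8b starts 98 bases from Sdhd, a subunit of complex II, which was above WT in both DDI2-KO libraries, at 295 and 275 CPM against 164 and 184 (log2 fold change 0.71, adjusted p = 0.0668, edgeR). Chchd4 starts 157 bases from Tmem43 (log2 fold change 0.28), Pmpca 23 bases from Entr1 (0.11), Timm23 51 bases from Parg (-0.055), Timm17b 88 bases from Pqbp1 (-0.60, adjusted p = 0.118, edgeR) and Tomm6 644 bases from Frs3 (0.045).

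RefSeq held 36 promoter windows, from 250 bases before to 50 after the start, for 34 members, with none for Tomm40l, Grpel2, Timm21 and Tomm7. Their median GC content was 59.8% and their median number of CG dinucleotides 20.5, against 52.7% and 7 over all 32851 promoters. On either strand, the GABP letters CCGGAAGTG were found in 6 members (Mtx2, Timm10, Timm23, Timm29, Timm8a2 and Tomm70a), and 2.03% of all promoters hold it. The palindrome of nuclear respiratory factor 1 with any base at position 5 occurred in Chchd4, Timm8b and Tomm20 (4.60% of all), while the strict palindrome, a special case of it, occurred in 0 members (0.971% of all). TGACNNNGC, the antioxidant response element, was in Lonp1, Mtx2 and Tomm20 (12.4% of all), the estrogen-related receptor letters TCAAGGTCA in Timm8b (0.423%), and the cAMP response element TGACGTCA in 0 members (1.79%). Of the members with CCGGAAGTG, Mtx2, Timm29 and Tomm70a were higher in both DDI2-KO libraries, as were 28.0% of all genes tested. Timm10 overlapped between groups. So did Timm23, whose change could not be read, and Timm8a2 had 0 reads. A match of letters is a description and shows no binding.

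A second list held 42 other genes of import, membrane insertion, processing, folding, quality control and membrane shape, all of which were tested. Their median log2 fold change was 0.27 and 35 were above 0. Only Immp1l passed in edgeR, 1 of 42 where 1.33% of all genes were called higher and 1.20% lower. It encodes a subunit of the inner membrane peptidase and had 8.27 and 8.97 CPM in WT and 15.3 and 21.7 in DDI2-KO (log2 fold change 1.10 ± 0.22, adjusted p = 0.0438, edgeR). The call was lost without WT replicate 1 (adjusted p = 0.176, edgeR), WT replicate 2 (0.105) or DDI2-KO replicate 2 (0.0547). The lowest was Mtx3, with 19.8 and 17.7 CPM in WT and 7.22 and 12.5 in DDI2-KO (log2 fold change -0.93 ± 0.26, adjusted p = 0.0920, edgeR). It was called lower by DESeq2 (adjusted p = 0.0337), by edgeR with no filter on low counts (0.0064), with a replicate block (0.0319) and with offsets (0.0420), and without DDI2-KO replicate 2 (log2 fold change -1.37, adjusted p = 0.0217, edgeR), while without DDI2-KO replicate 1 its log2 fold change was -0.58 (adjusted p = 0.121). Mtx1 and Mtx3 lay below WT in both DDI2-KO libraries and Mtx2 above. Hspa9, the HSP70 of the motor, was picked for its role after its values were seen. It overlapped between groups, at 458 and 568 CPM in WT and 547 and 539 in DDI2-KO (log2 fold change 0.082). The 77 tested mitochondrial ribosomal protein genes had a median of 0.18, with 1 called higher, and the 37 complex I subunit genes a median of 0.38, with 3 called higher. These numbers of calls are to be read against the 1.33% of all genes called higher. With its main settings edgeR called no gene of these 3 groups lower. At an unadjusted p under 0.05 the other import genes had 14 higher and 1 lower, the ribosomal protein genes 15 and 2, and the complex I genes 16 and 1, where 12.0% of all genes were higher and 11.5% lower. The difference of the members from these groups was not tested.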

How the data were processed

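Per the labels, total RNA of mouse liver was extracted with RNeasy columns and made into TruSeq Stranded mRNA libraries. The submitters' notes name cutadapt 1.8, STAR 2.5.2b, HTSeq 0.6.1 and GRCm38, and the strand setting and annotation release are not given in the sources used here. The authors deposited raw counts per gene and library, without normalization. The summary lines were kept out of totals and tests: reads without a feature came to 2.53% to 5.11% of reads on genes and ambiguous reads to 2.5% to 3.66%. Groups and replicate numbers came from the sample titles. The study states 2 biological replicates, and p-values measure the spread between these libraries only.

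The main test was the quasi-likelihood test of edgeR 4.0.16 (R 4.3.3), with TMM, filterByExpr and robust glmQLFit, with Benjamini-Hochberg adjustment and a threshold of 0.05. The standard error was the log2 fold change over the square root of F. The study names a moderated test from limma without further settings, and limma-voom and limma-trend (limma 3.58.1) were run as alternatives, as were DESeq2 1.42.0, other scalings and filters, a replicate block, left-out libraries and lowess offsets (span 0.3). Exon lengths, coordinates and symbols are from GENCODE on GRCm38, which holds 48349 of 48709 identifiers. Every member may be named, with full statistics for those called, the 3 highest and 3 lowest log2 fold changes among members averaging 10 CPM or more, and the highest per length in each role. The members and lists were chosen with earlier results of these data known. The floor of 3 reads covers counting error only, and with 2 libraries a group precision rests on the number of animals rather than on depth.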

Additional observations from a re-analysis of the deposited data

Results flagged for a closer look

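Reads that fell on several overlapping genes lie outside the gene counts compared above. They came to 2.5% and 2.54% of the reads on genes in the WT libraries and to 3.49% and 3.66% in the DDI2-KO libraries, a DDI2-KO mean of 3.57%, above the WT level. Tomm40l, Mtx1, Pmpca, Grpel1 and Timm8b are among the members whose exons overlap another gene, and the part of this class in their counts was not tested.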

How the results depend on the processing

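All 16 alternatives gave a positive median log2 fold change of the members, between 0.15 and 0.36, and 0 members called lower. The number of members called, 2 with the main settings, was 1 with upper-quartile factors and with a mean of at least 1 CPM, 0 with limma-voom, limma-trend and no robust estimation, 8 with DESeq2 and 10 with no filter on low counts. Over all genes, against 346, DESeq2 called 911, limma-voom 136, limma-trend 139, no filter 1544, no robust estimation 152 and the offsets for length and GC content 789. With upper-quartile factors 126 of 317 called genes were higher, against 182 of 346. For the other import genes, 1 of which was called, upper-quartile factors, limma-voom, limma-trend and no robust estimation gave 0, DESeq2 6, no filter 7 and the offsets 3. The titles number the libraries of both groups 1 and 2. The study states no pairing beyond littermate controls, so the numbers were not taken as pairs. Deviations from the group means of same-numbered libraries correlated by 0.0588. With 2 libraries a group this value can neither establish nor exclude pairing. A replicate block gave 9 members, 5 other import genes and 1108 genes, and the block with offsets 2 (Gfer and Tomm40l), 2 and 591. Leaving out each library in turn gave 1 to 2 members, 0 to 2 other import genes, 153 to 631 genes and a median of 0.15 to 0.36. With a library left out, a group rests on a lone sample, assumed to vary like the other group. The cause of these shifts was not tested. Members near 0 changed sign. Timm44, at -0.0015, was 0.046 with library totals, 0.0097 with DESeq2 and 0.0091 with no filter. With offsets, and with offsets and the block, Timm8b was -0.025 and -0.024, Tomm34 -0.013 and -0.016, and Tomm5 -0.018 and -0.0057. Over the left-out libraries the lowest and highest values were -0.46 and 0.059 for Clpp, -0.12 and 0.29 for Dnlz, -0.022 and 0.38 for Grpel2, -0.25 and 0.050 for Lonp1, -0.29 and 0.17 for Timm10, -0.15 and 0.69 for Timm13, -0.37 and 0.12 for Timm17b, -0.056 and 0.57 for Timm23, -0.23 and 0.21 for Timm44, -0.060 and 0.54 for Timm50, -0.060 and 0.23 for Tomm34, -0.56 and 0.29 for Tomm40, and -0.023 and 0.43 for Tomm5. No called member changed sign.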
